A study of Mus musculus with 16 samples.

Results

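The genes described here encode the proteins of the mitochondrial ribosome. They were chosen by name, as every gene whose platform symbol is Mrpl or Mrps followed by a number and at most 1 letter. The rule reads names and no measured value. This gave 76 genes of the 19505 genes with a platform symbol, 48 named Mrpl for the large subunit and 28 named Mrps for the small subunit. Each of the 76 was read by 1 probe set, so no choice between probe sets was needed. The hearts came from 10-week-old male wild-type C57BL/6 mice. The 4 sham hearts had surgery without a stated coronary occlusion, and the other hearts had the left anterior descending coronary artery tied for 30 min and then released for 6, 24 or 72 h before RNA was taken, with 4 hearts in each of the 4 groups and 1 array per heart. The labels do not say which region of the heart was used or how long after surgery the sham hearts were taken, so there is no sham group for each time. Hearts are numbered as in the sample titles: sham 2 to 5, 6 h 7, 8, 10 and 11, 24 h 14 to 17, and 72 h 20 to 23.

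Mitochondria carry their own ribosome, which translates a small set of messages from mitochondrial DNA, all of them for membrane subunits of the respiratory chain and ATP synthase. Its ribosomal RNAs come from mitochondrial DNA, while all of its proteins are encoded in the nucleus, made in the cytosol and imported. Some have counterparts in the bacterial ribosome and others are found only in mitochondria. Heart muscle, which is dense with mitochondria, depends on these ribosomes to keep up oxidative phosphorylation.

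All values are log2 signals as deposited, so a difference of 1 is a factor of 2 on the authors' scale. Levels of different genes are not compared, because probe sets differ in brightness. A gene is said to have risen or fallen where limma's moderated test, fitted over all 16 arrays, gave a Benjamini-Hochberg adjusted p under 0.05 over the 19505 genes, and differences are given with their standard error (SE). The array medians lay between 5.84 and 5.95. Heart muscle markers such as the troponins were high on every array, with means of 17.43 to 17.93. Of these 10 markers, 5 fell at 24 h and 3 at 72 h. Neutrophil markers (6 of 6 measured) averaged 4.15 to 4.60 in sham hearts, 7.74 to 10.15 at 6 h, 6.14 to 9.72 at 24 h and 5.27 to 6.71 at 72 h. Macrophage markers (7 of 8) averaged 7.05 to 7.44 in sham hearts, 8.40 to 8.71 at 6 h, 9.44 to 11.30 at 24 h and 10.06 to 10.99 at 72 h. Fibroblast markers (5 of 6) averaged 11.31 to 11.61 in sham hearts and 13.42 to 14.11 at 72 h, and the 4 lymphocyte markers measured were below the background level in every group. All 6 neutrophil markers were below background in the sham hearts. In 24 h heart 16, markers of atrial muscle averaged 9.38 against 4.80 to 6.33 on the other 15 arrays, and 24 h heart 17 had the lowest neutrophil and macrophage markers of its group, 6.14 and 9.44. The members' counts at 24 h against sham are therefore also given without hearts 16 and 17. For the lists compared with the members, the 24 h counts are given with all hearts only.

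On the deposited scale, the mitochondrial ribosomal protein genes lay further below sham at each later time after reperfusion, an order that did not hold when arrays were centred on spike-ins. At 72 h, 36 of the 76 fell and 0 rose, where 10.3% of all genes fell and 11.5% rose. At 24 h, 20 fell and 5 rose, against 12.3% and 13.8% of all genes, and at 6 h, 13 fell and 1 rose, against 12.3% and 7.92%. In either direction 20.2% of all genes were called at 6 h, 26.1% at 24 h and 21.8% at 72 h. The median log2 difference of the 76 from sham was -0.15 at 6 h, -0.23 at 24 h and -0.43 at 72 h, beside -0.04, -0.07 and -0.09 over all genes. Negative differences numbered 61, 60 and 71 of 76. The 4 reperfused hearts all lay below the 4 sham hearts for 20 genes at 6 h, 22 at 24 h and 49 at 72 h, where 13.7%, 13.0% and 14.4% of all genes did. They all lay above for 1, 6 and 0 genes, where 9.06%, 12.9% and 12.7% of all genes did. Without 24 h hearts 16 and 17, the 24 h comparison had 14 falls, 4 rises and a median of -0.21. Single 24 h calls were followed through this refit for only some of the genes described below. Of these, Mrpl4 (limma adjusted p = 0.071), Mrpl20 (0.0708), Mrpl43 (0.117), Mrps18a (0.143) and Ptcd3 (0.146) lost their call. Which other members lost their fall is not listed here. In RNA from whole tissue, fewer cells of a type and less of an RNA in each cell cannot be told apart. The part of the entering leukocytes and fibroblasts in these differences was not tested.

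The order of the times and the direction at 24 and 72 h depended on how the arrays were scaled. The deposited values hold 4 hybridization spike-ins, labelled bacterial transcripts added to each hybridization mix, which read 0.22 higher than in sham hearts at 6 h, 0.31 lower at 24 h (-0.31) and 0.50 lower at 72 h (-0.50). When every array was centred on them, the median of all genes moved to 0.40 at 72 h and that of the mitochondrial ribosomal protein genes to 0.07, with 7 rises and 3 falls, where 37.3% of all genes rose and 1.27% fell. At 24 h the same centring gave a median of 0.08, with 7 rises and 7 falls (23.3% and 4.31% of all genes), and at 6 h it gave -0.37, with 24 falls and 0 rises (20.5% of all genes fell). Centred instead on 4 poly-A controls, bacterial transcripts put in before the labelling step, the members' median was -0.48 at 6 h with 34 falls, -0.33 at 24 h with 19 falls and 3 rises, and -0.24 at 72 h with 6 falls and 0 rises. Under that centring 31.2% of all genes fell at 6 h, 12.7% fell and 10.4% rose at 24 h, and 3.02% fell at 72 h. Under both spike-in centrings the members' median was lowest at 6 h. Below, "rose" and "fell" refer to the deposited scale unless another is named. A shift of whole arrays leaves the distance between the members' median and that of all genes as it is: -0.11 at 6 h, -0.16 at 24 h and -0.34 at 72 h. Calls that held on the deposited scale and under all 4 others (quantile, median, hybridization and poly-A) were 11 of 13 falls at 6 h, 7 of 20 falls and 3 of 5 rises at 24 h, and 3 of 36 falls at 72 h.

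**Figure D1:**
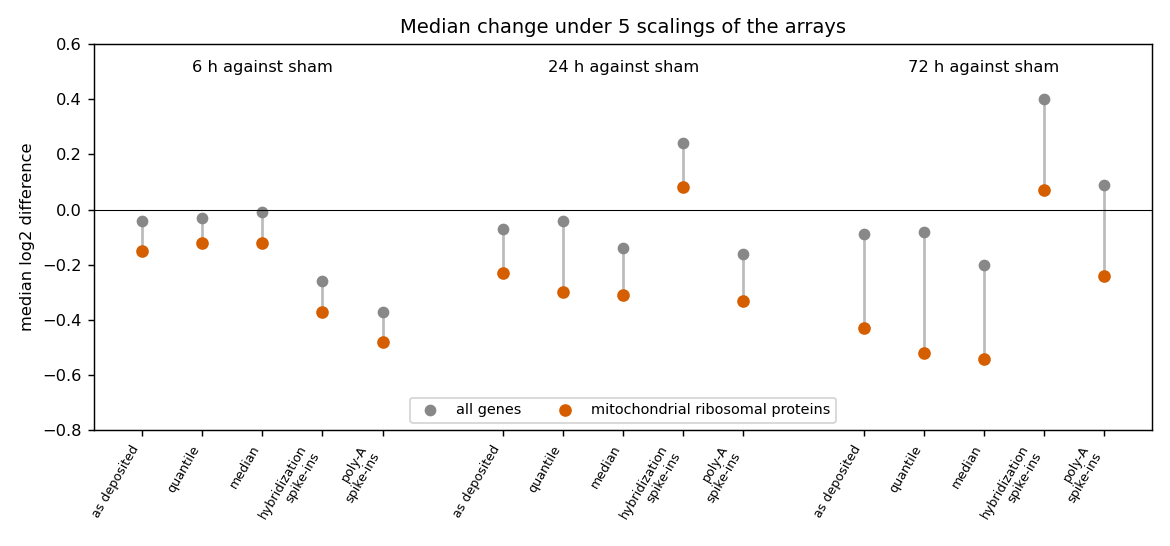
Median log2 difference from sham of the 76 mitochondrial ribosomal protein genes (orange) and of all 19505 genes (grey) at 6, 24 and 72 h, under 5 scalings of the arrays named on the horizontal axis; the grey line joins the 2 medians. The orange point lies below the grey one in all 15 pairs, while its side of 0 changes at 24 and 72 h with the hybridization spike-ins, where it is 0.08 and 0.07. Median and spike-in centring shift whole arrays, so the distance between the 2 points cannot differ from that on the deposited scale. Only quantile normalization could change it, and there it was -0.09, -0.25 and -0.44 at 6, 24 and 72 h.

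The downward shift at 72 h appeared on every heart of the group. The median of the 76 genes, each taken relative to its sham mean, was -0.46, -0.46, -0.33 and -0.53 in the 72 h hearts, and 0.04, -0.09, 0.02 and 0.03 in the sham hearts. In the 24 h hearts it was -0.11, -0.29, -0.32 and -0.22, and in the 6 h hearts -0.17, 0.05, -0.41 and -0.16. The 72 h and 24 h hearts all lay below the 4 sham hearts, whereas 6 h heart 8 lay above them. The lowest of the 6 h values belonged to heart 10, which also had the highest neutrophil markers of all arrays, 10.15; the part of these cells in it was not tested. Without heart 10, 9 members were called at 6 h (8 fell and 1 rose), and without sham heart 2 also 9 (9 fell). Of the 76 genes, 46 had their lowest group mean at 72 h and 51 had their highest in sham hearts.

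**Figure D2:**
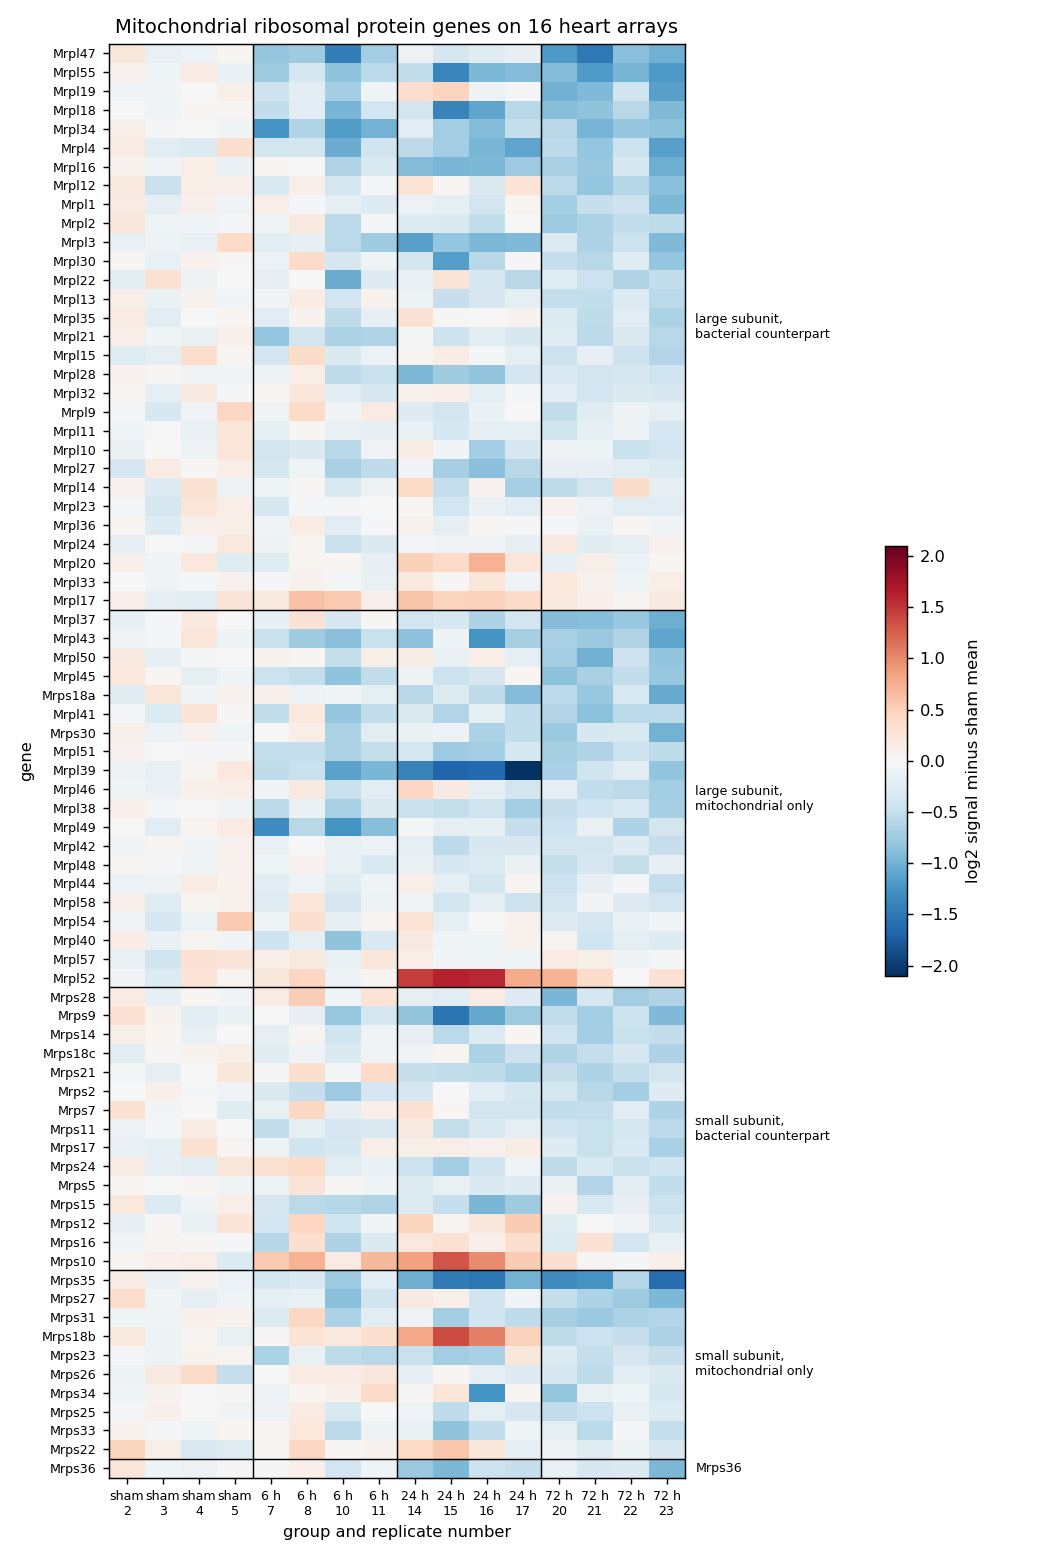
Log2 signal of each of the 76 genes (rows, grouped by subunit and origin and sorted by the 72 h difference) on each of 16 arrays (columns, by group and replicate number) minus the gene's sham mean; blue is below and red above that mean. Blue spreads from 6 h to 72 h, and the red cells of Mrpl52, Mrps18b and Mrps10 stand out at 24 h; the deposited scale is shown, and centring on hybridization spike-ins moves the 72 h median from -0.43 to 0.07.

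Falls at 72 h lay in both subunits. Of 50 large-subunit genes, 25 fell, with a median difference of -0.44, and of 25 small-subunit genes, 11 fell, with a median of -0.43. The proteins with bacterial counterparts had 13 of 30 falls in the large subunit and 7 of 15 in the small one, and those found only in mitochondria had 12 of 20 and 4 of 10. At 6 h the falls on the deposited scale lay mostly in the large subunit, 11 of 50 against 2 of 25, where 12.3% of all genes fell. With hybridization spike-ins they were 17 of 50 and 7 of 25 (20.5% of all genes). With poly-A spike-ins they were 24 of 50 and 10 of 25 (31.2% of all genes). All 6 genes that fell at all 3 times (Mrpl34, Mrpl38, Mrpl39, Mrpl43, Mrpl51 and Mrpl55) encode large-subunit proteins. Only for Mrpl34, Mrpl51 and Mrpl55 did the calls at all 3 times hold without each array in turn. At 24 h, 15 large-subunit genes fell and 3 rose, and 4 small-subunit genes fell and 2 rose. The differences between the subunits were not tested. The classes count Mrps18a and Mrps30 with the large subunit, where their proteins sit despite their names. They also place Mrps18a and Mrps18b, relatives of the bacterial protein S18 that both fell at 72 h, among those found only in mitochondria. Mrps36 stands apart, since its protein is a component of the alpha-ketoglutarate dehydrogenase complex and not of the ribosome.

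**Figure D3:**
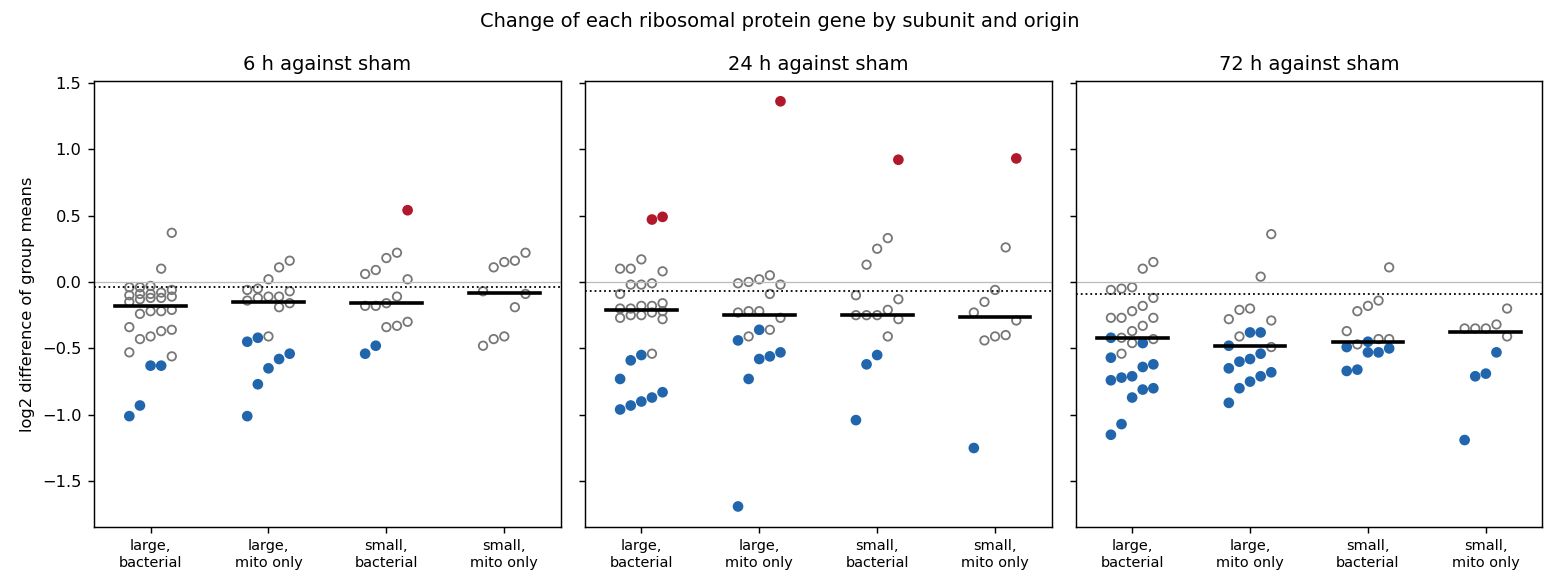
Log2 difference from sham of each gene at 6, 24 and 72 h, by subunit and by whether the protein has a bacterial counterpart or is found only in mitochondria; filled points passed an adjusted p of 0.05 (blue lower, red higher), open points did not, thick bars are class medians and the dotted line is the median of all genes. At 72 h no point is red and all 4 class medians lie between -0.38 and -0.49 on the deposited scale. Mrps18a and Mrps18b, relatives of the bacterial protein S18, are placed with the proteins found only in mitochondria.

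The rises at 24 h came from 5 genes. The most changed was Mrpl52, a large-subunit protein found only in mitochondria. Its signal was 8.39, 8.17, 8.74 and 8.50 in the sham hearts, 8.69, 8.90, 8.33 and 8.51 at 6 h, 9.91, 10.06, 10.03 and 9.23 at 24 h, and 9.18, 8.84, 8.46 and 8.75 at 72 h. All 4 hearts at 24 h lay above every sham and every 6 h heart, and the 72 h hearts overlapped the sham hearts. The rise at 24 h was 1.36 ± 0.20 (SE), or 2.56-fold, with a limma adjusted p of 4.35e-05, and from 24 to 72 h Mrpl52 fell by 1.00 ± 0.20 (adjusted p = 0.0019). A neighbour on the same strand, Mmp14, which encodes a membrane-bound matrix metalloproteinase and was named after its values were seen, rose by 2.01, 2.60 and 4.15 at 6, 24 and 72 h, without a return at 72 h.

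Mrps18b was the only member called in opposite directions at different times. It is 1 of 3 relatives of the bacterial small-subunit protein S18, and its product sits in the small subunit. The signal was 9.98, 9.66, 9.82 and 9.62 in sham hearts, 9.79, 10.05, 9.99 and 10.12 at 6 h, 10.57, 11.14, 10.82 and 10.26 at 24 h, and 9.23, 9.32, 9.28 and 9.11 at 72 h. Every 24 h heart was above, and every 72 h heart below, all sham hearts. The gene rose by 0.93 ± 0.16 at 24 h (adjusted p = 0.000276) and fell by 0.53 ± 0.16 at 72 h (adjusted p = 0.0247), and the 72 h hearts were 1.46 ± 0.16 below the 24 h hearts (-1.46, adjusted p = 6.73e-06), a factor of 2.76. The fall below sham did not hold with hybridization spike-ins (-0.04, adjusted p = 0.882) or poly-A spike-ins (-0.35, adjusted p = 0.197). It was also lost without any of sham hearts 2 and 4 and 72 h hearts 20 and 23, with adjusted p between 0.0539 and 0.0804. The other relatives did not rise. Mrps18a, whose product sits in the large subunit, fell at 24 h (-0.58 ± 0.17) and 72 h (-0.68 ± 0.17), and Mrps18c, in the small subunit, fell at 72 h (-0.53 ± 0.16) after a 24 h difference of -0.28 that did not pass (adjusted p = 0.215). The 24 h call of Mrps18a was lost without sham heart 3 or 24 h heart 17 (0.063 and 0.0562), and the 72 h call of Mrps18c without any of sham hearts 4 and 5 and 72 h hearts 20 and 23 (0.0551 to 0.0624). With hybridization and poly-A spike-ins the 72 h calls of Mrps18a (0.442 and 0.114) and Mrps18c (0.896 and 0.263) were also lost. The 24 h call of Mrps18a was lost with hybridization spike-ins (0.324).

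Mrps10, a small-subunit protein with a bacterial counterpart, was the 1 member that rose at 6 h. It read 7.91, 7.98, 8.02 and 7.58 in sham hearts, 8.43, 8.60, 8.05 and 8.56 at 6 h, 8.72, 9.19, 8.86 and 8.41 at 24 h, and 8.23, 7.89, 7.84 and 7.98 at 72 h. The 6 h and 24 h hearts all lay above the sham hearts, by a narrow margin for 6 h heart 10, and the 72 h hearts were back among them. The rise was 0.54 ± 0.17 at 6 h (adjusted p = 0.0333) and 0.92 ± 0.17 at 24 h (adjusted p = 0.000499), and Mrps10 fell by 0.81 ± 0.17 from 24 to 72 h (adjusted p = 0.00346). The 6 h call was lost with either set of spike-ins (0.32 and 0.20) and without any of sham hearts 2 and 5 and 6 h hearts 7, 8 and 11. Mrpl17 and Mrpl20, large-subunit proteins with bacterial counterparts, rose at 24 h by 0.49 ± 0.15 (adjusted p = 0.0187) and 0.47 ± 0.15 (adjusted p = 0.0222). Mrpl17 read 11.06, 10.93, 10.94 and 10.86 at 24 h against 10.60, 10.26, 10.24 and 10.73 in sham hearts, without overlap. Mrpl20 read 9.76, 9.66, 9.99 and 9.51 at 24 h against a sham mean of 9.25 ± 0.21 (SD, n = 4), also without overlap. Neither call held throughout: Mrpl17 lost it without any of sham hearts 3 and 4 and 24 h heart 14 (adjusted p of 0.0536 to 0.0671), and Mrpl20 without any of sham hearts 3 and 5 and 24 h heart 16 (0.0560 to 0.0842). Mrpl17 also lost it with poly-A spike-ins (0.40, adjusted p = 0.136), and Mrpl20 with poly-A spike-ins (0.115), quantile normalization (0.0596) and median centring (0.0559).

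**Figure D4:**
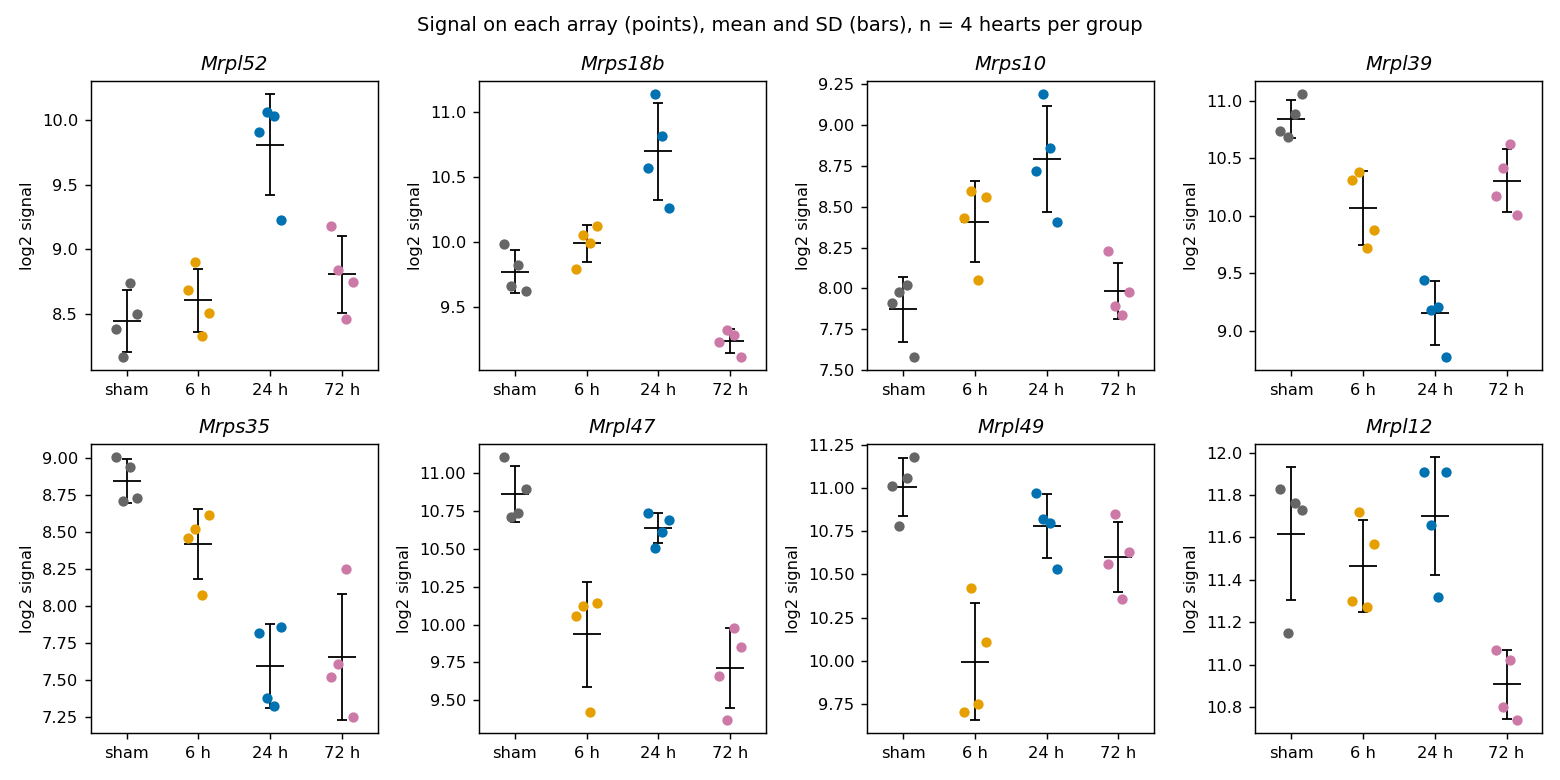
Log2 signal of 8 mitochondrial ribosomal protein genes on each array (points) by group, with the group mean (horizontal bar) and SD (vertical bar), n = 4 hearts each; the vertical axes do not start at 0 and differ between genes. Mrpl52, Mrps18b and Mrps10 peak at 24 h, Mrpl39 is lowest at 24 h, Mrpl47 is low at 6 and 72 h, Mrpl49 is low at 6 h, Mrps35 at 24 and 72 h, and Mrpl12 at 72 h.

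Against this, Mrpl39 fell more at 24 h than any other member. It encodes a large-subunit protein found only in mitochondria. The signal was 10.74, 10.69, 10.89 and 11.06 in sham hearts, 10.31, 10.38, 9.72 and 9.88 at 6 h, 9.44, 9.18, 9.21 and 8.77 at 24 h, and 10.17, 10.42, 10.63 and 10.01 at 72 h. No reperfused heart reached the lowest sham heart, and the 24 h hearts lay below all the others. The difference from sham was -0.77 ± 0.18 at 6 h (adjusted p = 0.00452), -1.69 ± 0.18 at 24 h (adjusted p = 1.77e-06), a 3.23-fold fall, and -0.54 ± 0.18 at 72 h (adjusted p = 0.0422). The 72 h call did not hold without each array in turn. From 24 to 72 h Mrpl39 rose by 1.15 ± 0.18 (adjusted p = 0.000268). It was the 1 member of 76 that rose between these times. Mrpl39 and Mrpl52 thus moved in opposite directions at 24 h and both moved back toward sham at 72 h.

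The start-site regions of the 3 genes whose 24 h rise held under all 5 scalings and of Mrpl39 are printed here to show which motif matches each holds. Each run is 300 bases from RefSeq on build GRCm38.p6, spanning the annotated start and mostly upstream of it, 5′ to 3′ on the gene's strand, with capitals marking motif matches on either strand.

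Mrpl52, chr14:54426659-54426958, plus strand: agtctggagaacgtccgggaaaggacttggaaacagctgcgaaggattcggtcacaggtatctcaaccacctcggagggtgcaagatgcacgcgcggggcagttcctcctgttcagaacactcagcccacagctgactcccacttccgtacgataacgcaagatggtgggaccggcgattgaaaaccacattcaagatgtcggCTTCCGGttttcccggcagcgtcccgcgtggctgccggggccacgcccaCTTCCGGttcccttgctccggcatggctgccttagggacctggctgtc

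Mrps18b, chr17:35916391-35916690, minus strand: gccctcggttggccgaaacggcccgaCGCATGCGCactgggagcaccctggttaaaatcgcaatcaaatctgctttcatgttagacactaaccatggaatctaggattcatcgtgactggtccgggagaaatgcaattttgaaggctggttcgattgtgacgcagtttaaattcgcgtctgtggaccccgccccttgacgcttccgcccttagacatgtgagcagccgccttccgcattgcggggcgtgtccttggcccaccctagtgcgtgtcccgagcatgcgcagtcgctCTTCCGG

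Mrps10, chr17:47368947-47369246, plus strand: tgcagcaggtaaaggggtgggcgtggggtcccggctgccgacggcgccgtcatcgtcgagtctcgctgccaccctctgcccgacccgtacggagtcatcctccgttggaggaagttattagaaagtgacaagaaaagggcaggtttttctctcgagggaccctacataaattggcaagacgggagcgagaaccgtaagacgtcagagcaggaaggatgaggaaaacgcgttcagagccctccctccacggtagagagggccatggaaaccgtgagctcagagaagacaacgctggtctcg

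Mrpl39, chr16:84735195-84735494, minus strand: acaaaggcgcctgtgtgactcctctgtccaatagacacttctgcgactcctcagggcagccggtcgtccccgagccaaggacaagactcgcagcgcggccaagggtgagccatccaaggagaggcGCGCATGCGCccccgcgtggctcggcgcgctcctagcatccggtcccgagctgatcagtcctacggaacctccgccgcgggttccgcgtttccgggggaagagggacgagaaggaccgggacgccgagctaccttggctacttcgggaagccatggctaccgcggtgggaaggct

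The motifs searched were those of factors known for nuclear genes of mitochondria: NRF1 (GCGCANGCG), the ETS family with GABP (CCGGAAG), YY1 (AAGATGGC), the E-box (CACGTG) and the estrogen-related receptors (TCAAGGTCA). Matches on overlapping stretches, as in the palindromic NRF1 match of Mrpl39, were counted for each strand. Mrpl52 held 2 ETS matches, Mrps18b held 1 ETS and 1 NRF1 match, Mrpl39 held 2 overlapping NRF1 matches and Mrps10 held 0. RefSeq start-site regions were matched for 67 of the 76 genes, 73 regions in all. The ETS motif was in 34.2% of these, against 8.86% of all 32851 regions of that length, NRF1 in 21.9% against 6.25%, YY1 in 16.4% against 2.75%, the E-box in 9.59% against 7.15% and the receptor motif in 0 against 0.423%. The E-box share counts the same site of Mrpl2 more than once, in overlapping regions. By gene the E-box was in 5 of 67. Among genes with a region, ETS matches were in 12 of 30 that fell at 72 h, 10 of 27 with no call at any time and 3 of 5 that rose at 24 h. NRF1 matches were in 6, 9 and 2 of these, and YY1 matches in 5, 6 and 0. A match is a string of letters and no evidence of binding.

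Early falls at 6 h were largest in Mrpl34 and Mrpl49. Mrpl34, a small large-subunit protein with a bacterial counterpart, read 10.66, 10.50, 10.53 and 10.45 in sham hearts and 9.30, 9.90, 9.37 and 9.54 at 6 h. It read 10.30, 9.81, 9.62 and 10.04 at 24 h and 9.96, 9.56, 9.73 and 9.67 at 72 h. Every reperfused heart lay below the sham hearts. The difference was -1.01 ± 0.17 at 6 h (adjusted p = 0.000163), -0.59 ± 0.17 at 24 h (adjusted p = 0.011) and -0.80 ± 0.17 at 72 h (adjusted p = 0.00137).

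Mrpl49, found only in mitochondria, fell as far at 6 h and was not called later. It read 11.01, 10.78, 11.06 and 11.18 in sham hearts, 9.70, 10.42, 9.75 and 10.11 at 6 h, 10.97, 10.82, 10.80 and 10.53 at 24 h, and 10.56, 10.85, 10.36 and 10.63 at 72 h. The 6 h hearts lay below all sham, 24 h and 72 h hearts except 72 h heart 22, which was lower than 6 h heart 8. The 6 h difference was -1.01 ± 0.17 (adjusted p = 0.000202), a 2.01-fold fall. Mrpl49 rose from 6 to 24 h by 0.79 ± 0.17 (adjusted p = 0.00156), and it was the 1 member called higher at 72 h than at 6 h, by 0.60 ± 0.17 (adjusted p = 0.0102). Mrpl40, also found only in mitochondria, also fell at 6 h only, with a difference of -0.45 ± 0.15 (adjusted p = 0.0439).

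Mrpl47 fell at 6 h, was close to sham at 24 h and fell again at 72 h. Its product is the counterpart of the bacterial protein L29, at the mouth of the tunnel through which the new peptide leaves. The signal was 11.11, 10.71, 10.74 and 10.90 in sham hearts, 10.06, 10.12, 9.42 and 10.14 at 6 h, 10.74, 10.51, 10.61 and 10.69 at 24 h, and 9.66, 9.37, 9.98 and 9.85 at 72 h. The 24 h hearts overlapped the sham hearts, while the 6 h and 72 h hearts lay below both. The difference from sham was -0.93 ± 0.17 at 6 h (adjusted p = 0.000569), -0.23 ± 0.17 at 24 h (adjusted p = 0.378) and -1.15 ± 0.17 at 72 h (adjusted p = 7e-05), with a rise of 0.70 ± 0.17 from 6 to 24 h (adjusted p = 0.00458) and a fall of 0.92 ± 0.17 from 24 to 72 h (adjusted p = 0.00117). Mrpl21, Mrpl45 and Mrps2 also fell at 6 and 72 h and not at 24 h. Mrpl45, which lies near the tunnel exit and contacts the inner membrane, read 13.08, 13.03, 12.69 and 13.02 at 6 h and 12.68, 12.86, 13.02 and 12.74 at 72 h, all below the sham values of 13.76, 13.58, 13.35 and 13.45. At 24 h it read 13.43, 13.08, 13.18 and 13.57, overlapping sham, and from 24 to 72 h it fell by 0.49 ± 0.15 (adjusted p = 0.0353).

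The other 5 genes that fell at all 3 times with Mrpl34 differed in course. Mrpl55 went down step by step on the deposited scale, with values of 12.28, 12.12, 12.38 and 12.07 in sham hearts, 11.46, 11.84, 11.37 and 11.65 at 6 h, 11.70, 10.85, 11.27 and 11.31 at 24 h, and a mean of 11.14 ± 0.15 (SD, n = 4) at 72 h. Every reperfused heart was below every sham heart, and the differences were -0.63, -0.93 and -1.07 ± 0.17 (adjusted p = 0.0105, 0.000352 and 0.00011), although neither step between neighbouring times passed. Mrpl51, found only in mitochondria, dropped once and stayed there on the deposited scale: 15.07, 14.97, 14.96 and 14.94 in sham hearts, 14.49, 14.49, 14.33 and 14.48 at 6 h, 14.61, 14.23, 14.25 and 14.62 at 24 h, and 14.29, 14.35, 14.53 and 14.45 at 72 h. Its differences were -0.54, -0.56 and -0.58 ± 0.13, and the differences between times, at most 0.04 in size, did not pass. Mrpl38 ran in the same way, at -0.42, -0.53 and -0.48 ± 0.14, but its 6 h and 72 h calls did not hold without each array in turn. Of the Mrpl51 calls only that at 6 h held under all 5 scalings, and no call of Mrpl38 did. Mrpl43, at -0.65, -0.73 and -0.80 ± 0.20, had means of 6.05 to 6.85 near the background level of 6.76, the 75th percentile of the negative controls, and its gene overlaps that of the mitochondrial helicase Twnk on the other strand, which fell at 6 h (-0.55) and 72 h (-0.65). The overlap's part in its signal was not tested. The 6 h call of Mrpl43 was lost without any of sham heart 4 and 6 h hearts 8 and 10 (adjusted p of 0.0573 to 0.083). Its 24 h call was lost with hybridization spike-ins (0.2), and its 72 h call with hybridization (0.298) and poly-A spike-ins (0.0501).

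Small-subunit Mrps35, found only in mitochondria, had the largest fall at 72 h together with a large fall at 24 h. It read 9.01, 8.71, 8.94 and 8.73 in sham hearts, 8.46, 8.52, 8.08 and 8.62 at 6 h, 7.82, 7.38, 7.33 and 7.86 at 24 h, and 7.52, 7.61, 8.25 and 7.25 at 72 h. The 24 h and 72 h hearts did not overlap the sham hearts, and 72 h heart 22 was the highest of its group. The differences were -1.25 ± 0.20 at 24 h (adjusted p = 8.38e-05) and -1.19 ± 0.20 at 72 h (adjusted p = 0.000174), and from 6 to 24 h it fell by 0.82 ± 0.20 (adjusted p = 0.00356). Together with Mrpl47 and Mrpl55, Mrps35 was 1 of the 3 genes whose 72 h fall held under all 5 scalings.

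Mrps9 and Mrpl3, Mrpl16, Mrpl18, Mrpl4 and Mrpl28, all with bacterial counterparts, also had large falls at 24 h. Mrps9 read 12.61, 12.39, 12.07 and 12.18 in sham hearts and 11.49, 10.78, 11.24 and 11.56 at 24 h, a difference of -1.04 ± 0.20 (adjusted p = 0.000527) without overlap. Mrpl3, a protein near the peptidyl transferase centre, read 10.65, 10.70, 10.64 and 11.21 in sham hearts and 9.66, 9.99, 9.85 and 9.87 at 24 h, a difference of -0.96 ± 0.18 (adjusted p = 0.00038). Mrpl16 read 8.77, 8.72, 8.74 and 8.93 at 24 h against 9.76, 9.61, 9.83 and 9.55 in sham hearts, a difference of -0.90 ± 0.17. All 3 also fell at 72 h (-0.66, -0.57 and -0.72). Mrpl18 and Mrpl4 differed by -0.87 and -0.83 at 24 h and by -0.81 and -0.74 at 72 h, where the Mrpl4 call was lost without heart 23 (adjusted p = 0.0548). With hybridization and poly-A spike-ins the 72 h calls of Mrpl18 (limma adjusted p = 0.2 and 0.083) and Mrpl4 (0.359 and 0.118) were lost. The 24 h calls of Mrpl4 (0.0707) and Mrpl28 (0.107) were lost with hybridization spike-ins. Mrpl28, at -0.73 at 24 h (adjusted p = 0.00161), did not pass at 72 h (-0.37, adjusted p = 0.107).

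A block of 15 genes fell at 72 h only: Mrpl1, Mrpl2, Mrpl12, Mrpl13, Mrpl19, Mrpl41, Mrpl48, Mrpl50, Mrps11, Mrps14, Mrps18c, Mrps27, Mrps28, Mrps30 and Mrps31. Their 72 h differences ran from -0.87 for Mrpl19 to -0.38 for Mrpl48. Mrpl12, which forms the stalk that binds translation factors, read 11.83, 11.15, 11.76 and 11.73 in sham hearts, 11.30, 11.72, 11.27 and 11.57 at 6 h, 11.91, 11.66, 11.32 and 11.91 at 24 h, and 11.07, 10.80, 11.02 and 10.74 at 72 h. The 72 h hearts were below all others, including sham heart 3, the lowest of the sham hearts. The fall was 0.71 ± 0.18 against sham (-0.71, adjusted p = 0.00639) and 0.79 ± 0.18 against 24 h (-0.79, adjusted p = 0.00463). It did not pass with either set of spike-ins (-0.22 and -0.52, adjusted p = 0.405 and 0.106).

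Mrpl19 and Mrpl50 were both called against sham at 72 h only. Mrpl19, with a bacterial counterpart, read 11.35, 11.36, 11.42 and 11.55 in sham hearts, 10.98, 11.18, 10.70 and 11.33 at 6 h, 11.78, 11.88, 11.31 and 11.38 at 24 h, and a mean of 10.55 ± 0.32 (SD, n = 4) at 72 h. Its 6 h hearts all lay below the sham hearts without a call (-0.37, adjusted p = 0.177), and it rose from 6 to 24 h by 0.54 ± 0.18 (adjusted p = 0.0306). From 24 to 72 h it fell by 1.04 ± 0.18 (adjusted p = 0.000552), a factor of 2.06. Mrpl50, found only in mitochondria, read 12.11, 11.75, 11.90 and 11.93 in sham hearts and 11.20, 10.91, 11.49 and 11.09 at 72 h, a difference of -0.75 ± 0.16 (adjusted p = 0.00247) without overlap. Mrps28 fell by 0.89 ± 0.16 from 6 to 72 h (adjusted p = 0.000292). Mrps30 had a 72 h difference of -0.60 ± 0.19 (adjusted p = 0.0314), a call lost without any of sham hearts 2 and 4 and 72 h hearts 20 and 23 (0.074 to 0.119). With hybridization spike-ins the 72 h calls of Mrpl19 (limma adjusted p = 0.14), Mrpl50 (0.241) and Mrps30 (0.687) were lost. With poly-A spike-ins those of Mrpl50 (0.0754) and Mrps30 (0.223) were lost.

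Mrpl37, found only in mitochondria, fell at 24 h and further at 72 h. Its signal was 10.53, 10.69, 10.92 and 10.70 in sham hearts, 10.54, 11.01, 10.38 and 10.73 at 6 h, 10.31, 10.37, 10.06 and 10.33 at 24 h, and 9.80, 9.81, 9.91 and 9.68 at 72 h. The 72 h hearts lay close together and below all the rest. The differences were -0.44 ± 0.15 at 24 h (adjusted p = 0.0316) and -0.91 ± 0.15 at 72 h (adjusted p = 0.000146). The 24 h call did not hold without each array in turn, and the 72 h call was lost with hybridization spike-ins (-0.41, limma adjusted p = 0.0763). Mrpl42, Mrps18a and Mrps21 also fell at 24 and 72 h. Mrps21, a small-subunit protein with a bacterial counterpart, was 0.74 ± 0.14 lower at 24 h than at 6 h (-0.74, adjusted p = 0.000512).

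Mrps36, the alpha-ketoglutarate dehydrogenase component, fell at 24 h only. It read 11.66, 11.32, 11.29 and 11.37 in sham hearts and 10.63, 10.46, 10.96 and 10.93 at 24 h, a difference of -0.66 ± 0.18 (adjusted p = 0.00949). At 72 h it read 11.26, 11.08, 11.10 and 10.46, all below sham, with a difference of -0.43 that did not pass (adjusted p = 0.0972). Mrpl27 fell at 24 h only, and Mrps15 at 6 h (-0.54) and 24 h (-0.62) only. The 6 h call of Mrps15 was lost without any of sham hearts 2 and 5 and 6 h hearts 8, 10 and 11 (adjusted p of 0.0518 to 0.0876).

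No call against sham was made for 30 of the 76 genes: Mrpl9, Mrpl10, Mrpl11, Mrpl14, Mrpl15, Mrpl22, Mrpl23, Mrpl24, Mrpl30, Mrpl32, Mrpl33, Mrpl35, Mrpl36, Mrpl44, Mrpl46, Mrpl54, Mrpl57, Mrpl58, Mrps5, Mrps7, Mrps12, Mrps16, Mrps17, Mrps22, Mrps23, Mrps24, Mrps25, Mrps26, Mrps33 and Mrps34. Their 72 h differences ran from -0.54 for Mrpl30 to 0.10 for Mrpl33. Mrpl58, a peptidyl-tRNA hydrolase built into the large subunit that can free stalled ribosomes, read 11.81, 11.42, 11.72 and 11.77 in sham hearts and 11.28, 11.62, 11.41 and 11.28 at 72 h, a difference of -0.28 ± 0.15 (adjusted p = 0.211). Mrps12, a protein of the decoding centre that governs accuracy, read 7.98, 8.18, 8.02 and 8.44 in sham hearts and 8.63, 8.22, 8.39 and 8.69 at 24 h, a difference of 0.33 ± 0.18 (adjusted p = 0.218). Neither difference passed with 4 hearts a group. Mrpl14, Mrpl22, Mrpl36, Mrpl54 and Mrps16 had means below 6.76, the background level, and Mrpl43 was the sixth gene below it. Mrpl53 and Mrps6 were not analysed here.

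In the comparisons of 72 h with earlier times, falls outnumbered rises on the deposited scale. From 24 to 72 h, 15 genes fell and 1 rose, where 6.07% and 6.85% of all genes did. From 6 to 24 h, 8 rose and 10 fell, against 17.3% and 10.9%, and from 6 to 72 h, 1 rose and 18 fell, against 17.5% and 13.1%. In either direction 28.2%, 12.9% and 30.6% of all genes were called from 6 to 24 h, 24 to 72 h and 6 to 72 h. The members' medians were -0.18 from 24 to 72 h, -0.08 from 6 to 24 h and -0.24 from 6 to 72 h, beside -0.02, -0.04 and -0.06 over all genes. From 24 to 72 h the largest falls were in Mrps18b, Mrpl19, Mrpl52, Mrpl47 and Mrps10, of which Mrps18b, Mrpl52 and Mrps10 were coming down from a rise. Without hearts 16 and 17, 10 genes fell and 1 rose from 24 to 72 h, and the median from 6 to 24 h turned from -0.08 to 0.03. With hybridization spike-ins 6 fell and 1 rose from 24 to 72 h, where 2.37% of all genes fell and 9.45% rose. With poly-A spike-ins 3 fell and 4 rose over these times, where 2.06% of all genes fell and 13.5% rose. From 6 to 24 h the spike-ins gave 41 rises and 0 falls (hybridization, 50.3% of all genes rose) and 16 rises and 2 falls (poly-A, 25% of all genes rose). From 6 to 72 h they gave 43 rises and 0 falls (69.9% of all genes rose) and 19 rises and 0 falls (47% of all genes rose). Of the 5 largest falls from 6 to 24 h, those of Mrpl16, Mrps9 and Mrps35 were lost with both sets of spike-ins. From 6 to 72 h, with 0 falls under either set, all 18 were lost, among them Mrpl37, Mrps18b, Mrps28, Mrps35 and Mrpl50. Mrpl47 and Mrps10 lost their falls from 24 to 72 h with poly-A spike-ins (adjusted p = 0.0567 and 0.0762). An F test over the 4 groups called 45 of the 76 genes, where it called 44.5% of all genes.

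Proteins of the cytosolic ribosome, which serve the rest of the cell, went the other way. Of 54 measured genes, 53 rose at 24 h and 43 at 72 h, with medians of 0.95 and 0.67, and 0 fell. At 6 h none of the 54 was called, with a median of 0.27, and 17 were higher at an unadjusted p under 0.05. The array medians of these genes were 0.99, 1.11, 1.21 and 0.58 at 24 h, where the mitochondrial ribosomal protein genes stood at -0.11, -0.29, -0.32 and -0.22. The cytosolic rise at 24 and 72 h was seen under both spike-in centrings, with medians of 0.85 to 1.26.

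Nuclear genes for oxidative phosphorylation, whose products assemble with those made on mitochondrial ribosomes, fell at 24 h in 44 of 80 cases and at 72 h in 35, with medians of -0.43 and -0.40 and 0 rises. At 6 h 2 of 80 fell, with a median of -0.04, whereas 13 of 76 mitochondrial ribosomal protein genes fell. From 24 to 72 h 1 of 80 rose and 0 fell in limma's test, with 4 higher and 0 lower at an unadjusted p under 0.05, while 15 of 76 ribosomal protein genes fell. The difference between these lists was not tested. With hybridization spike-ins the 72 h median of the oxidative phosphorylation genes was 0.10, with 7 rises and 0 falls, where 37.3% of all genes rose and 1.27% fell. With poly-A spike-ins it was -0.21, with 1 rise and 7 falls, where 14.1% rose and 3.02% fell. At 24 h their falls numbered 10 with hybridization and 36 with poly-A spike-ins, where 4.31% and 12.7% of all genes fell, and their rises 2 and 0.

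**Figure D5:**
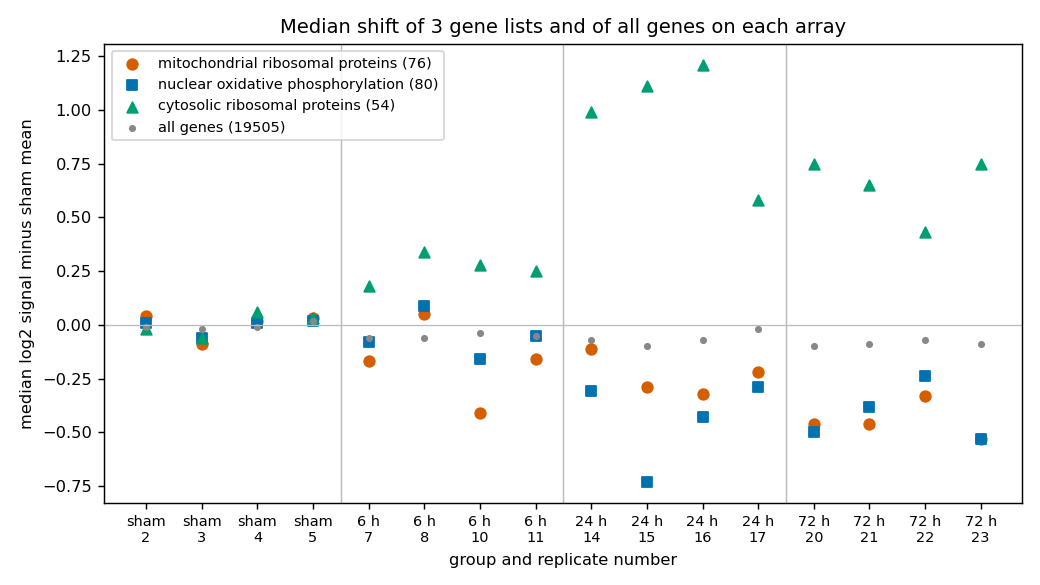
Median log2 signal, relative to the sham mean of each gene, on each array for the 76 mitochondrial ribosomal protein genes (orange circles), 80 nuclear oxidative phosphorylation genes (blue squares), 54 cytosolic ribosomal protein genes (green triangles) and all 19505 genes (grey dots). On the deposited scale the green triangles reach 1.21 at 24 h, while the orange circles lie between -0.33 and -0.53 at 72 h. With hybridization spike-ins the 72 h medians are 0.07 for the orange genes and 0.10 for the blue ones, beside 0.40 for all genes.

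Among genes that make and run the mitochondrial ribosome, falls were more frequent than among all genes in some lists and near the share of all genes (12.3% at 6 h, 12.3% at 24 h and 10.3% at 72 h) in others. With all 16 arrays, no member of these lists rose against sham on the deposited scale. Of 4 ribosomal proteins with other names, 0 fell at 6 h, 2 at 24 h and 2 at 72 h. Dap3, a GTP-binding protein of the small subunit, fell at 24 h (-0.57 ± 0.14) and 72 h (-0.75 ± 0.14, adjusted p = 0.000728). Gadd45gip1, of the large subunit, fell at 72 h (-0.64 ± 0.18), and Ptcd3, an RNA-binding protein of the small subunit, fell at 24 h (-0.51 ± 0.17). The Gadd45gip1 call was lost with both sets of spike-ins and without any of sham heart 2 and 72 h hearts 20 and 23 (adjusted p of 0.0508 to 0.571). The Ptcd3 call was lost with both sets of spike-ins, with array weights, and without any of sham hearts 2, 3 and 5 and 24 h hearts 15 and 16 (0.0506 to 0.447). Of 13 translation factors, 5 fell at 6 h (38.5%), 6 at 24 h (46.2%) and 6 at 72 h (46.2%). Taco1, which activates translation of the cytochrome oxidase subunit I message, fell at 24 h (-0.82 ± 0.18) and fell by 1.00 ± 0.18 at 72 h (adjusted p = 0.000352). The release factor gene Mtrf1l fell at 6 h (-0.77 ± 0.17) and 72 h (-0.90 ± 0.17), and its relative Mtrf1 at 6 h (-0.83 ± 0.16).

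The largest single falls in the lists for ribosome assembly and for mitochondrial DNA expression were at 6 h. Tfb1m, the methyltransferase that modifies the small ribosomal RNA, fell by 1.68 ± 0.21 at 6 h (-1.68, adjusted p = 7.02e-06), and differed by -0.33 and -0.25 at 24 and 72 h, neither of which passed. Trmt2b, an RNA methyltransferase, fell at 24 h (-1.09 ± 0.18), and Mrm3, which methylates the large ribosomal RNA, at 72 h (-1.06 ± 0.19). Of 25 assembly factors, 4 fell at 6 h (16%), 3 at 24 h (12%) and 4 at 72 h (16%), near the share of all genes. Of 13 genes for mitochondrial DNA expression and upkeep, 6, 4 and 7 fell (46.2%, 30.8% and 53.8%). Tefm, the elongation factor of mitochondrial transcription, fell at 6 h (-1.32 ± 0.20, adjusted p = 6.31e-05) and 72 h (-0.81 ± 0.20). Lrpprc, which stabilises mitochondrial messages, fell at 24 h (-1.24 ± 0.14, adjusted p = 3.59e-06) and 72 h (-0.85 ± 0.14), and Mterf2 at all 3 times (-1.09, -0.66 and -0.60). Polrmt, the mitochondrial RNA polymerase, named here after its values were seen, fell at all 3 times (-0.99, -0.79 and -0.97 ± 0.16). Of 16 mitochondrial aminoacyl-tRNA synthetases, 1 fell at 6 h (6.25%), 3 at 24 h (18.8%) and 5 at 72 h (31.2%). Fars2 (-0.92 ± 0.14) and Lars2 (-0.82 ± 0.16) fell most at 24 h, and Sars2, the neighbour of Mrps12 on the other strand, at 72 h (-0.77 ± 0.17), while Mrps12 did not pass. With hybridization spike-ins, where the median of all genes at 6 h was -0.26 and 20.5% of them fell, 8 of 13 translation factors, 16 of 25 assembly factors and 10 of 13 mitochondrial DNA genes fell at 6 h. At 72 h their falls then numbered 1, 1 and 0 and their rises 1, 3 and 0, where 1.27% of all genes fell and 37.3% rose. At 24 h 3 assembly factors rose, where 23.3% of all genes did. With poly-A spike-ins 2 translation factors, 2 assembly factors and 4 mitochondrial DNA genes fell at 72 h and 0 rose, where 3.02% of all genes fell and 14.1% rose.

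Many of the members lie close to another gene. Of the 76, 43 have a protein-coding neighbour within 500 bases and 18 overlap one in the reference gene table of build GRCm38.p6, and whether the probe sets tell the strands apart is not given in the sources used here. Mrpl46 and Mrps11 are neighbours on opposite strands and are both members. Mrps11 fell at 72 h (-0.45, adjusted p = 0.0343), and Mrpl46 differed by -0.49 without passing (adjusted p = 0.0636). Mrpl49 lies beside Fau, a cytosolic ribosomal protein gene named after its values were seen, which rose at 24 h (0.99) and 72 h (0.93) and differed by 0.21 at 6 h, when Mrpl49 fell by 1.01 (-1.01).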

How the data were processed

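RNA from 16 mouse hearts was read on 1 array each. The deposited log2 values were made by the authors with Affymetrix Expression Console, per the submitters' processing notes; its version, the summarization, filters and build: not given in the sources used here. A log base of 2 was assumed from the software; values run from 1.83 to 19.82, and the top lies above what a scanner usually gives in log2, so the scale and every fold printed are open to doubt. The series design text names a different Affymetrix array from the one whose identifiers the table carries, and the series title gives other hours than the sample labels; identifiers and labels were followed.

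Genes were named from the platform annotation; 55 genes with several probe sets kept the one with the highest mean. No dim genes were removed. limma 3.58.1 in R 4.3.3 (lmFit, eBayes; 12 residual and 6.943 prior degrees of freedom) fitted 4 group means over 16 arrays, with Benjamini-Hochberg adjustment over 19505 genes; the median SE was 0.183. The number of arrays limits the precision. Nothing in the labels gives batches. Nothing says more of the replicates than 4 hearts per group, so p-values measure the spread between these hearts. The method was tested on simulated data. The members and lists were chosen with earlier results of these data known, and lists are described by counts and medians, without tests. Named genes were the 10 members with the largest rise and the 10 with the largest fall past the threshold in each comparison with sham, the 5 each way between times, any member whose direction differed between times, the 3 largest absolute changes against sham past the threshold in each pathway list, and Mrpl12, Mrps6 (not analysed here), Mrps12, Mrps18a, Mrps18b, Mrps18c, Mrps30, Mrps36 and Mrpl58. Other members are named to account for all 76. Alternatives were 4 other scalings, 3 filters, 4 other fits, the mean of probe sets, leaving out each array, and leaving out 24 h hearts 16 and 17. Figures used matplotlib 3.10.9.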

Additional observations from a re-analysis of the deposited data

Results flagged for a closer look

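In 6 of 140 gene and group combinations tested, 1 heart stood apart from the other 3 of its group; chance flags about 1 in 20. In 4 of the 6 it was 6 h heart 10: Mrpl47 (9.42, others 10.06 to 10.14), Mrpl51 (14.33, others 14.48 to 14.49), Mrpl4 (8.17, others 8.79 to 8.83) and Mrpl50 (11.43, others 11.97 to 12.04). Sham heart 5 was high for Mrpl3 (11.21, others 10.64 to 10.70), and sham heart 3 was low for Mrpl12 (11.15, others 11.73 to 11.83). Changes against sham differed between times, by the tests between times, for 18 members from 6 to 24 h, 16 from 24 to 72 h and 19 from 6 to 72 h. Mrps18b, called in opposite directions, changed by 0.71 from 6 to 24 h, by -1.46 from 24 to 72 h and by -0.75 from 6 to 72 h.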

How the results depend on the processing

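Scaling moved the results most. With hybridization spike-ins the calls and medians were 24 and -0.37 at 6 h, 14 and 0.08 at 24 h, 10 and 0.07 at 72 h, 41 and 0.45 from 6 to 24 h, 7 and 0.01 from 24 to 72 h, and 43 and 0.47 from 6 to 72 h. With poly-A spike-ins they were 34 and -0.48 at 6 h, 6 and -0.24 at 72 h, and 7 and 0.10 from 24 to 72 h, and the medians were 0.16 from 6 to 24 h and 0.28 from 6 to 72 h. From 6 to 72 h, quantile normalization gave 29 calls, and median centring gave 31 calls and a median of -0.38. Which scale is nearer to RNA per heart was not tested. Signs turned in 12 cases, 1 of them a call on the deposited scale, the fall of Mrpl50 from 6 to 72 h (-0.68): with hybridization spike-ins for Mrpl50 (0.03), Mrps18b (0.00, 6 h), Mrps18c (0.03, 24 h), Mrpl58 (0.04 at 24 h and 0.21 at 72 h), Mrps12 (0.32, 72 h) and Mrps36 (0.07, 72 h); with poly-A spike-ins for Mrps18b (-0.12, 6 h), Mrpl12 (-0.02, 24 h) and Mrps12 (0.01, 72 h); and without sham heart 3 for Mrps18a at 6 h (-0.15 to 0.02 without each array) and Mrpl12 at 24 h (-0.07 to 0.21). Leaving out each array gave 9 to 15 calls at 6 h, 18 to 28 at 24 h, 24 to 39 at 72 h (24 without heart 23), 10 to 18 from 6 to 24 h (10 without heart 7 or 14), 9 to 17 from 24 to 72 h (9 without heart 14 or 23) and 10 to 21 from 6 to 72 h (10 without heart 8 or 21, 11 without heart 20 or 23, and 12 without heart 11). Calls that held without each array in turn were 8 of 13 falls at 6 h, 16 of 20 falls and 3 of 5 rises at 24 h, and 19 of 36 falls at 72 h. Filters and other fits kept each count of calls within 1.5 times and each median within the spread of arrays. The mean of probe sets could not move the members, which have 1 probe set each. No paired analysis was possible because no replicate number is shared between groups. Signal over background limits the 6 genes below 6.76.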
